A study of Mus musculus with 20 samples.

Results

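The kidneys of all mice that received engineered immune complexes (EIC) were taken as 1 group and compared with the kidneys of Control mice, to find the expression changes that accompanied the injections whatever the gavage. The members are the 15 libraries of the groups EIC, EIC + S60 and EIC + S120, 5 mice in each, out of 20 libraries in all, and the other 5 are Control. They were chosen by their group labels and not by any measured value. All mice were female NCr nude sp/sp homozygotes, bought at 7 wk of age, which lack a thymus and therefore most T cells. EIC were formed in vitro from a human IgA1 myeloma protein with galactose-deficient O-glycans (Gd-IgA1) and 1 recombinant human IgG autoantibody against it (rIgG). The injected mice received 6 tail-vein injections, every other day, that each held 0.2 mg of Gd-IgA1 with 0.1 mg of rIgG, and Control mice received PBS and no EIC. All mice were gavaged daily for 11 days. The gavage was vehicle in EIC, 60 mg/kg of sparsentan in EIC + S60, 120 mg/kg of sparsentan in EIC + S120 and vehicle in Control. Kidneys were taken on day 12, a day after the last injection. No Control mouse received sparsentan, so the 3 injected groups differ from Control by the injections and 2 of them also by the drug. The hour at which each mouse was killed is not given in the sources used here.

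In IgA nephropathy, complexes of galactose-deficient IgA1 with IgG autoantibodies lodge in the mesangium of the glomerulus, where they can activate mesangial cells, complement and Fc receptors and draw in leukocytes. Sparsentan is a dual blocker of the type A receptor for endothelin and the type 1 receptor for angiotensin II. Most of the RNA of a whole kidney comes from tubule cells, above all those of the proximal tubule, which reabsorb the filtrate, burn fatty acids, make glucose and dopamine, and run a circadian clock that sets the daily course of many transport and metabolic genes. In such bulk samples fewer cells of a type and less RNA per cell cannot be told apart.

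Total counts per library ranged over 15220943, 17596322 and 27948916 (lowest, median and highest) in the 15 EIC-injected libraries and over 12662345, 14388553 and 38651781 in the 5 Control libraries. The mean log2 total differed by −0.19 (exact permutation test, two-sided, p = 0.363). Of 15780 genes listed, 13990 were tested by edgeR's quasi-likelihood test, and a gene is a DE gene where its Benjamini-Hochberg adjusted p is under 0.05. An LFC is the log2 fold change of EIC-injected over Control by edgeR, and levels are in CPM, which scale the counts to a common library size after TMM. The SE beside an LFC comes from a separate limma-trend fit on log2 CPM. It is not the SE of the edgeR value, and the LFC over this SE does not give the p-value. Kidney markers were present throughout, with 25 of 26 proximal tubule genes and 13 of 13 podocyte genes passing the filter on low counts.

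Control 653 stood apart from the other 19 libraries. Ucp1, the uncoupling protein of brown fat, was at 0, 0.0595 and 1.59 CPM (lowest, median and highest) in the EIC-injected libraries and at 0.162, 1.18, 93.1, 0.408 and 1.55 CPM in Control 651, 652, 653, 654 and 655. For Plin1, the coat protein of fat droplets in adipocytes, these values were 0, 0.109 and 1.62 CPM in EIC-injected and 0.0809, 0.678, 28.7, 0.136 and 0.774 CPM in Control. Only Control 653 was high for either gene, and the other 4 Control libraries overlapped with the injected ones. Of 13 markers of adipocytes, adrenal gland and skeletal muscle, 5 were among the genes listed and passed the filter. Their summed level was 79.3 CPM in Control 653, 4.15 to 5.65 CPM in the other Control libraries and 2.79 to 11.1 CPM in the injected libraries. A total of 60 genes were at 3 CPM or more in Control 653 and over 3 times the next highest library. Of these, 14 were DE genes with all 20 libraries, and each of the 14 lost its call when Control 653 was left out. The 60 also held genes outside the 5 markers. Akr1b3 was at 535 CPM in Control 653 and 105 CPM in the next highest library, and Cryab was at 507 and 144 CPM. Lamb3 was at 55.2 and 8 CPM, and Upk1a was at 12.9 and 4.13 CPM.

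**Figure D1:**
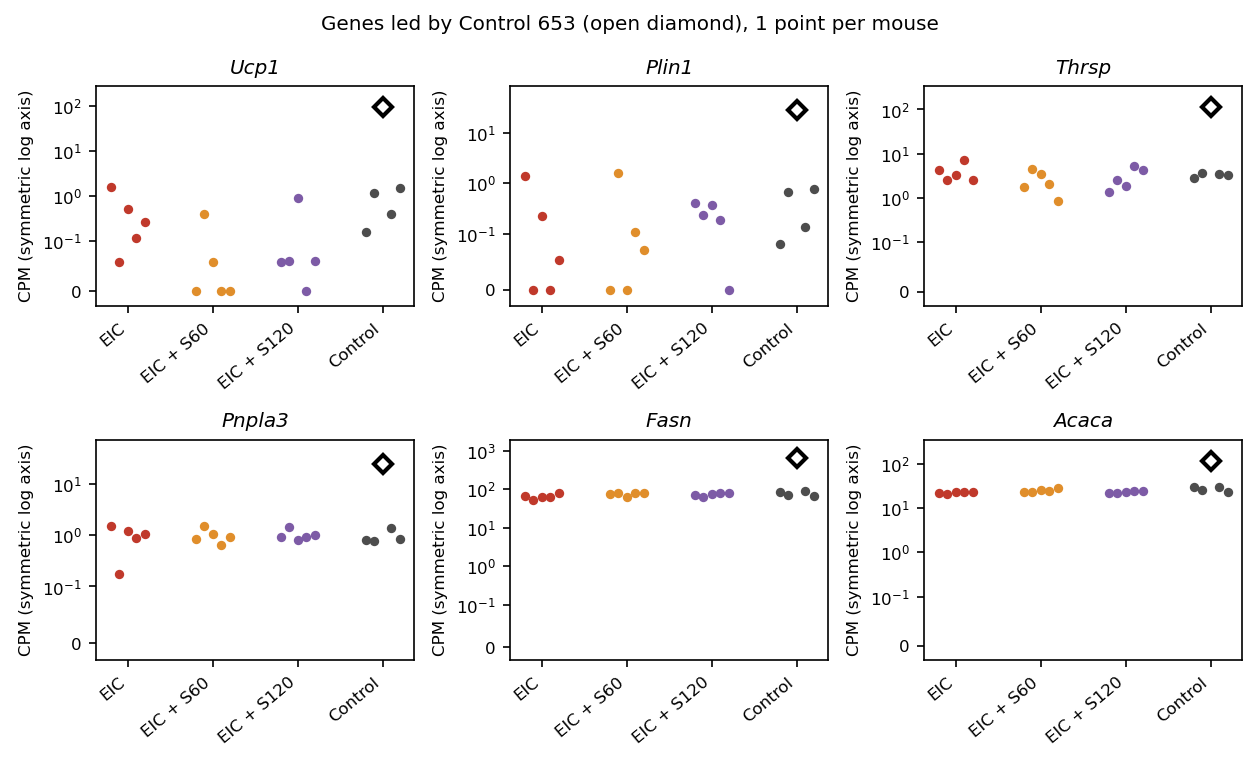
CPM (symmetric log axis) of 6 genes in each mouse of EIC, EIC + S60, EIC + S120 and Control, with Control 653 as an open diamond. Control 653 lies above all other 19 libraries in each panel, at 93.1 CPM for Ucp1, 28.7 CPM for Plin1 and 633 CPM for Fasn, while the other Control mice lie among or near the injected mice.

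The most negative LFCs rested on that library. Ucp1 (LFC −6.06, SE 0.95, adjusted p = 0.002), Plin1 (LFC −4.21, SE 0.89), Cidec, a fat droplet protein (LFC −3.00, SE 0.74), and Thrsp, a regulator of lipogenesis (LFC −2.97, SE 0.63), had adjusted p-values of 0.38, 0.89, 0.95 and 0.96 without Control 653. Pnpla3, a lipid droplet acyltransferase and lipase, was at 0.174, 0.948 and 1.501 CPM in EIC-injected and at 24.4 CPM in Control 653, and its LFC was −2.47 with that library and 0.10 without it. Of the 12 DE genes that averaged 1 CPM or more and had the most negative LFCs, 11 were not DE without Control 653, Cldn11, Loxl4, Npy1r and Klrg2 among them, and the exception was Grem1. The 12 largest positive LFCs lost 1 gene, Ren1, which is described with the genes that differed between the injected groups.

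EIC-injected kidneys had 699 DE genes, 340 higher and 359 lower, which is 5% of the genes tested (2.43% higher and 2.57% lower). With Control 653 left out there were 192 higher (1.37%) and 231 lower (1.65%), together 3.02% of the genes tested. Of the 699 genes, 386 were kept in that fit, 162 of those higher and 151 of those lower were lost, and 37 others were gained. Most differences were small, and only 33 of the 340 and 24 of the 359 had an LFC of at least 1 in size. The count was 431 without Control 654, and it was between 477 and 809 when any other library was left out. In all 20 fits that each left out 1 library, 160 genes were higher and 119 were lower. Some calls lost without Control 653, such as those of C1qa, Siglece and Ren1, were lost without other single Control libraries as well. The same held for Rora, Ppara, G6pc, Gabra4 and Usp2.

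**Figure D2:**
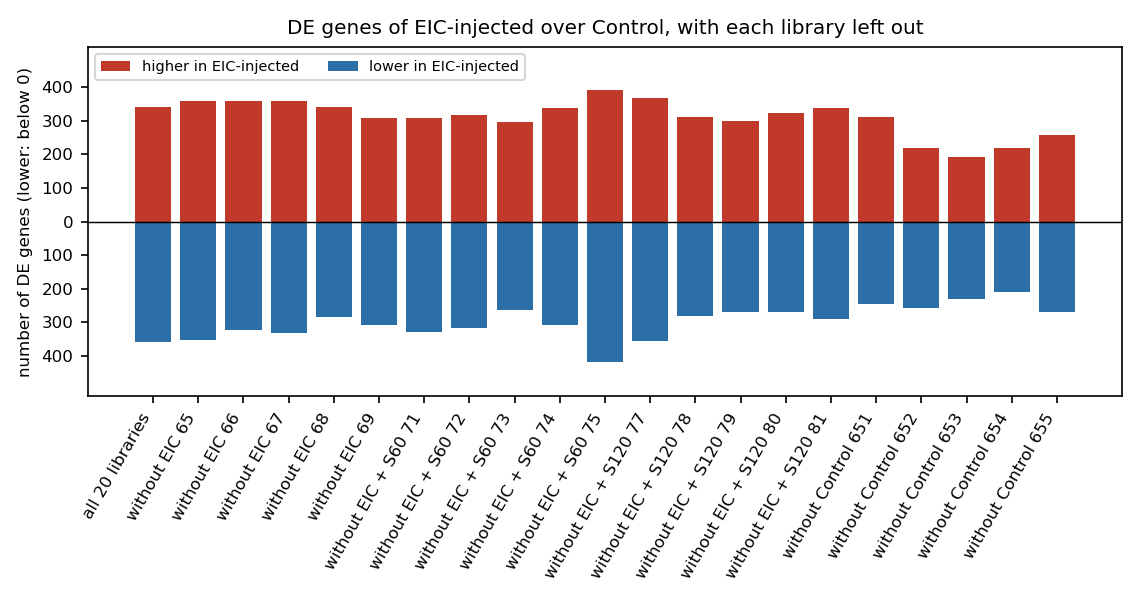
Number of DE genes higher (above 0) and lower (below 0) in EIC-injected over Control with all 20 libraries and with each library left out in turn. The counts are 340 and 359 with all libraries and 192 and 231 without Control 653. The count of genes higher is smallest without Control 653, and that of genes lower is smallest without Control 654, at 211.

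For 149 genes, 1.07% of those tested, the 15 EIC-injected libraries and the 5 Control libraries did not overlap, with 86 genes (0.615%) higher and 63 (0.45%) lower in every injected mouse. Of these, 146 were DE genes, and 140 were DE genes without Control 653 as well. These are the changes that were present at either dose of sparsentan and without it. The smallest p-value belonged to Tspan4, a membrane protein of the tetraspanin family that is known from the shedding of migrasomes. It was at 86.0, 103 and 120.6 CPM in EIC-injected (lowest, median and highest) and at 56.5, 57.4, 51.7, 60.732 and 56.7 CPM in Control, and the lowest injected mouse lay well above the highest Control mouse. Its LFC was 0.86 (SE 0.06, adjusted p = 2.4e-08), and the LFC over the shared Control mice was 0.86 in EIC, 0.78 in EIC + S60 and 0.93 in EIC + S120.

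Among genes that were lower, Jpt2 had the smallest p-value. Jpt2, a binding protein for the calcium-mobilizing messenger NAADP, was at 14.9, 16.5 and 21.3 CPM in EIC-injected and at 30.6, 35.4, 36.7, 34.1 and 29.0 CPM in Control (LFC −0.92, SE 0.09, adjusted p = 4.1e-07). Slc39a10, a zinc importer of the plasma membrane, was at 21.9, 24.9 and 29.5 CPM in EIC-injected and at 41.9, 36.5, 37.6, 44.1 and 43.3 CPM in Control (LFC −0.69, SE 0.07, adjusted p = 8.2e-07). All injected mice lay below all Control mice for both genes. Adap1, a GTPase-activating protein for Arf6, fell by 0.79 on the log2 scale, to 14.8, 17.3 and 22.2 CPM in EIC-injected, against 32.4, 32.4, 31.1, 33.5 and 28.9 CPM in Control. Arvcf, a catenin of adherens junctions, fell by 0.71, and its LFC was −0.72 in EIC, −0.67 in EIC + S60 and −0.73 in EIC + S120.

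Mt1, Mt2, Mthfd1l and Fmnl1 were among the genes that rose. Mt1, a metallothionein, which binds zinc and copper and is induced by metals, glucocorticoids and stress, was at 124, 167 and 206 CPM in EIC-injected and at 90.5, 83.6, 86.7, 79.0 and 80.5 CPM in Control (LFC 0.94, SE 0.09, adjusted p = 4.2e-06). Its neighbor Mt2 was at 32.3, 52.9 and 69.6 CPM in EIC-injected and at 31.2, 21.98, 29.2, 20.1 and 19.5 CPM in Control (LFC 1.09, SE 0.16). Neither gene overlapped between the groups, although the lowest injected mouse came close to the highest Control mouse for Mt2. Mthfd1l, the mitochondrial enzyme that releases formate in folate metabolism, was at 5.24, 6.48 and 8.42 CPM in EIC-injected and at 2.67, 3.36, 3.30, 3.47 and 2.55 CPM in Control (LFC 1.10, SE 0.11). Fmnl1, a formin that elongates actin filaments, rose by an LFC of 0.58 (SE 0.06) and did not overlap either.

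**Figure D3:**
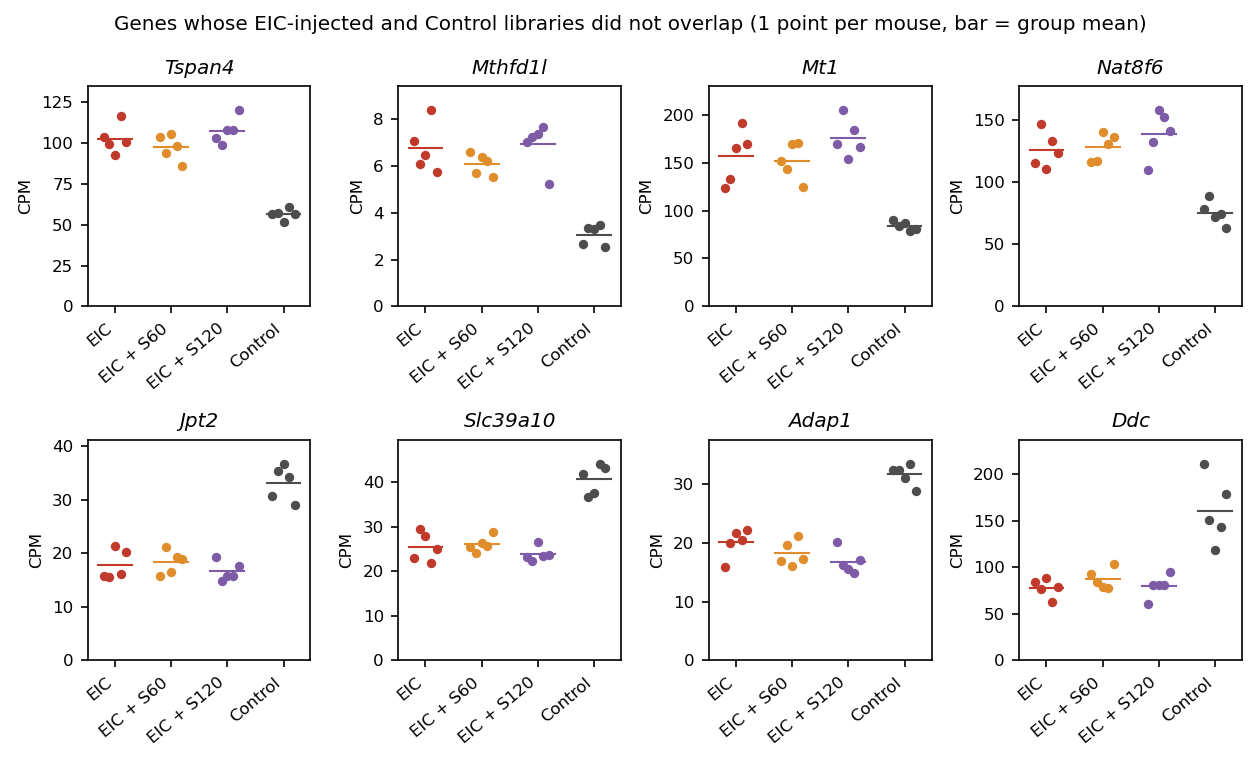
CPM of 8 genes in each mouse of EIC, EIC + S60, EIC + S120 and Control, with the group mean as a bar. Tspan4, Mthfd1l, Mt1 and Nat8f6 lie higher and Jpt2, Slc39a10, Adap1 and Ddc lie lower in all 15 injected mice than in all 5 Control mice, and the means of the 3 injected groups lie close together.

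A cluster of N-acetyltransferase genes on chromosome 6 rose together. These genes, in the family of Nat8, which acetylates cysteine conjugates in the kidney, lie side by side, and Nat8f5 (85817218 to 85820972) and Nat8f6 (85808024 to 85820954, GRCm38, GENCODE vM21) overlap, so reads may be shared and the count of each is uncertain. Of 8 members tested, 7 were higher, with LFCs of 0.31 to 1.53, and 0 were lower, against 2.43% and 2.57% of all genes. Without Control 653 the number higher was 6, against 1.37% of all genes. Nat8f6 was at 109, 132 and 158 CPM in EIC-injected and at 78.5, 88.5, 72.1, 73.9 and 62.7 CPM in Control. Nat8f5 was at 29.3, 46.8 and 85.9 CPM in EIC-injected and at 19.5, 23.3, 17.3, 12.6 and 16.8 CPM in Control. Both were higher in every injected mouse than in any Control mouse. This family was picked out after its values were seen.

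Some genes changed by almost the same amount in the 3 injected groups, which share the Control mice. Cry2, a repressor of the circadian clock, had an LFC of 0.56 in EIC, 0.56 in EIC + S60 and 0.57 in EIC + S120. B2m, the light chain of MHC class I, had 0.52, 0.51 and 0.51 in the same order, with a pooled LFC of 0.51 (SE 0.12, adjusted p = 0.023) and an adjusted p of 0.077 without Control 653. Ephb1, an ephrin receptor kinase, rose by 0.56 (SE 0.12), and Rflnb, a partner of filamin, fell by 0.70 (SE 0.13) without overlap. Gabra4, a GABA receptor subunit, had an LFC of 0.88 (adjusted p = 0.024, and 0.079 without Control 653), and Ell3, a transcription elongation factor, had −0.64 (adjusted p = 0.022). The call of Ell3 was lost without Control 652 (adjusted p = 0.071) or Control 655 (adjusted p = 0.063). Ptges, the inducible prostaglandin E synthase, was among the 10 most uniform genes as well, but it was at 11.2, 15.1 and 23.9 CPM in EIC-injected and at 21.5, 17.4, 66.6, 21.5 and 15.5 CPM in Control, and its adjusted p was 0.31 without Control 653.

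The circadian clock was the gene group with the largest share of DE genes among the lists of at least 5 genes tested. The lists were chosen with earlier results of these data known, so this rank of the clock is no independent evidence. In this clock, a dimer of CLOCK or NPAS2 with ARNTL binds E-boxes and drives the PER and CRY repressors, which shut the dimer off, while REV-ERB (Nr1d1, Nr1d2) and ROR proteins compete at ROR elements of Arntl and others, and DBP, TEF and HLF act through D-boxes. Of 10 clock repressors tested, 5 were higher and 0 lower (against 2.43% and 2.57% of all genes), with a median LFC of 0.57, where the median of all genes was −0.01. Without Control 653, 5 were higher as well. Per2 was at 30.2, 39.6 and 54.2 CPM in EIC-injected and at 16.0, 17.8, 17.6, 17.6 and 11.2 CPM in Control (LFC 1.29, SE 0.12, adjusted p = 4.2e-06). Cry1 was at 6.62, 12.3 and 23.9 CPM in EIC-injected and at 1.62, 2.46, 3.67, 2.99 and 2.71 CPM in Control (LFC 2.36, SE 0.26), the largest LFC of any DE gene that averaged 1 CPM or more. Every injected mouse lay above every Control mouse for Per2, Cry1, Cry2 and Nr1d2, and Nr1d2 rose by only 0.28 (SE 0.05). Nr1d1, its paralog, had a negative LFC of −0.69 (SE 0.27, adjusted p = 0.10), with −0.44 in EIC, −0.45 in EIC + S60 and −1.38 in EIC + S120, and an adjusted p of 0.17 between the injected groups.

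The windows of RefSeq (GRCm38.p6) that run from 250 bases before to 50 bases after a gene's start were searched on both strands for the E-box CACGTG and the D-box TTATGTAA. Tspan4, the gene with the smallest p-value, has 2 windows in the table, at different starts, and the window shown holds an E-box that begins 51 bases before its start. The window of Cry1 holds an E-box 60 bases before the start. The windows of Per3 and of Ces1g, a carboxylesterase of lipid metabolism, hold D-boxes, 2 and 1 of them. The 4 windows belong to genes named in the results and are shown 5′ to 3′, with the matching letters in capitals. Only windows with a match are shown, so they do not stand for the other genes named.
Tspan4 (chr7:141476130-141476429, plus strand): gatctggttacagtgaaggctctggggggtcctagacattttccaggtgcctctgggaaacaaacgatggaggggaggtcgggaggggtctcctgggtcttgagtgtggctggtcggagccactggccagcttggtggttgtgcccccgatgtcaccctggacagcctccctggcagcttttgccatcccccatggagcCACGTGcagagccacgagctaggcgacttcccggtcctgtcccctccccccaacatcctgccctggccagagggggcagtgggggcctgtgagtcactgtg
Cry1 (chr10:85185005-85185304, minus strand): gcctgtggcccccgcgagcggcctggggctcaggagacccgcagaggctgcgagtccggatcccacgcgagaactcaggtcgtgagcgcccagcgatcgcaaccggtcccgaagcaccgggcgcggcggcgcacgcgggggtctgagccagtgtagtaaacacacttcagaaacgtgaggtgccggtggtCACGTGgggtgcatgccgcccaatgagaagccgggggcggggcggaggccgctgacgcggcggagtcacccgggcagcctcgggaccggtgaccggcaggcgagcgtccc
Per3 (chr4:151044616-151044915, minus strand): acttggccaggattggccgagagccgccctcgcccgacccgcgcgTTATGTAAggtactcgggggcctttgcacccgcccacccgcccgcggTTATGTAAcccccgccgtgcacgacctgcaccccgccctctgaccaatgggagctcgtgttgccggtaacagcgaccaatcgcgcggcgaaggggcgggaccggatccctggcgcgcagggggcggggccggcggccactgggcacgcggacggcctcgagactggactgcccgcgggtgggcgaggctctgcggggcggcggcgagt
Ces1g (chr8:93337160-93337459, minus strand): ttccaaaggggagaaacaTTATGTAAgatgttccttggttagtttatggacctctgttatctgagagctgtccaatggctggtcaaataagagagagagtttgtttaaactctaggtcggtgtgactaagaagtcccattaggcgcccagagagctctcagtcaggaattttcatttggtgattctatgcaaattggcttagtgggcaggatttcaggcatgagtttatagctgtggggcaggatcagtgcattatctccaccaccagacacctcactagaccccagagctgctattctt

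An E-box was in the window of 45 of 272 DE genes that were higher and had a window (16.5%), in 11.3% of those that were lower, in 11.5% of all genes tested, and in 7.15% of all 32851 windows of the table. A D-box was in 8 of the 272 genes that were higher (2.94%), in 0 of the 284 that were lower, in 0.739% of all genes tested and in 0.938% of all windows. The ROR element AGGTCA was in 20.2% of the genes that were higher, 18.7% of those that were lower and 15.3% of those tested. Among clock genes with a window, an E-box was in 4 of 8 repressors, 0 of 6 activators and 1 of 5 output genes. A D-box was in 1 of 8, 0 of 6 and 0 of 5 in the same order. All these matches were counted and not tested. Per3, a paralog of Per2, was at 15.6, 23.0 and 32.8 CPM in EIC-injected and at 14.7, 14.9, 16.7, 16.7 and 15.1 CPM in Control (LFC 0.59, SE 0.12, adjusted p = 0.0053), and EIC + S120 79, at 15.6 CPM, was the only injected mouse within the range of Control. Ces1g was at 2.67, 5.41 and 10.4 CPM in EIC-injected and at 1.91, 1.81, 0.498, 2.11 and 2.09 CPM in Control (LFC 1.80, SE 0.29), without overlap.

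Clock output genes were higher as well. Of 6 tested, 5 were higher (median LFC 0.50), against 2.43% of all genes. Without Control 653, 4 were higher, against 1.37% of all genes. Wee1, a kinase that holds back entry into mitosis, was at 33.4, 40.6 and 56.0 CPM in EIC-injected and at 25.6, 26.2, 23.3, 24.5 and 19.9 CPM in Control (LFC 0.78, SE 0.09). Nampt, the rate-limiting enzyme of NAD salvage, was at 254, 295 and 341 CPM in EIC-injected and at 204, 215, 203, 215 and 206 CPM in Control (LFC 0.50, SE 0.06). For both, and for Tef (LFC 0.37, SE 0.06), no injected mouse was as low as any Control mouse. Hlf (LFC 0.42) and the deubiquitinase Usp2 (LFC 0.55) overlapped between the groups, and Usp2 had an adjusted p of 0.057 without Control 653.

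The activators of the clock moved in both directions. Of 7 genes tested, 2 were higher, Rora among them, and Npas2 and Clock were lower, against 2.43% and 2.57% of all genes. Without Control 653, 1 was higher and 2 were lower, against 1.37% and 1.65% of all genes. Npas2 was at 0.227, 0.462 and 1.11 CPM in EIC-injected and at 1.94, 1.33, 1.68, 1.84 and 2.09 CPM in Control (LFC −1.70, SE 0.30, adjusted p = 0.00089), with every injected mouse below every Control mouse. Clock had an LFC of −0.33 (SE 0.07, adjusted p = 0.0086). Arntl, the shared partner of both, had an LFC of −1.19 (SE 0.35, adjusted p = 0.096). Its LFC over Control was −2.09 in EIC (adjusted p = 0.0068), −1.66 in EIC + S60 (adjusted p = 0.035) and −0.37 in EIC + S120 (adjusted p = 0.63). Arntl was below all Control mice in 14 of 15 injected mice, while EIC + S120 78 was at 5.78 CPM, above the highest Control mouse at 3.36 CPM. Rora had an LFC of 0.37 (adjusted p = 0.024, and 0.085 without Control 653).

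**Figure D4:**
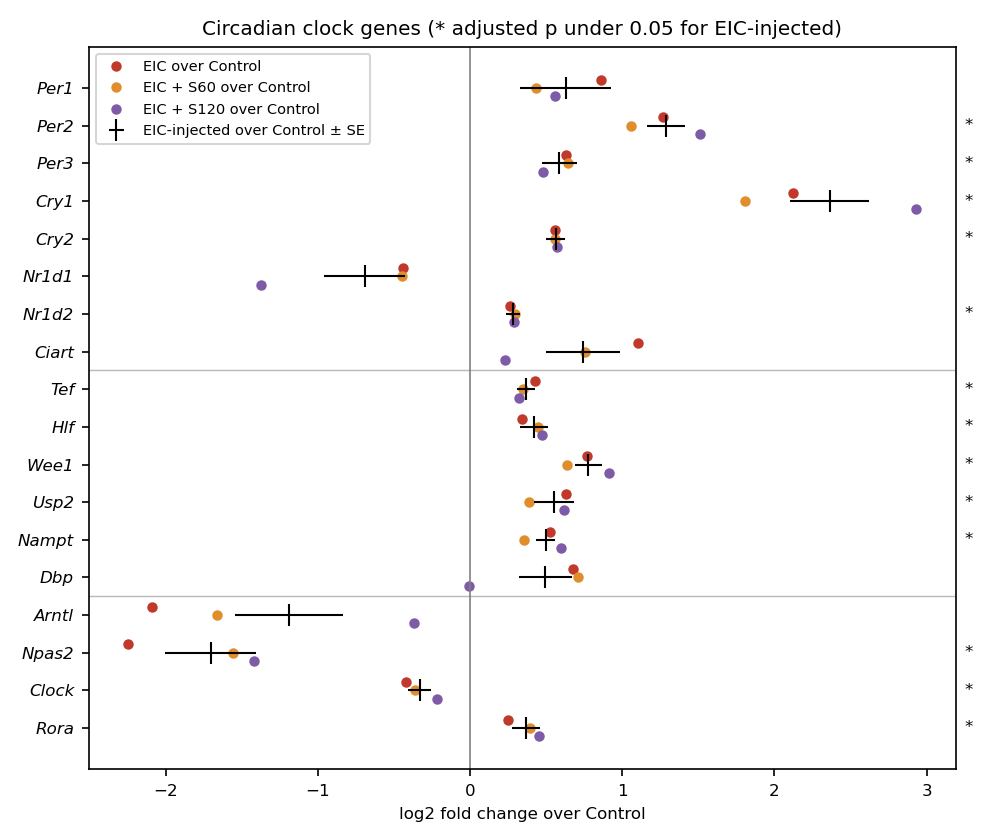
LFC over Control of 8 clock repressors, 6 output genes and 4 activators, as coloured points for EIC, EIC + S60 and EIC + S120 and as a black bar with the limma-trend SE for all EIC-injected mice, with an asterisk for an adjusted p under 0.05. Per2 (1.29), Cry1 (2.36), Cry2 (0.56) and Wee1 (0.78) are right of 0 in all 3 groups, Npas2 (−1.70) and Clock (−0.33) are left of it, and for Dbp the point of EIC + S120 (−0.01) lies left of those of the other injected groups.

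Genes of fatty acid oxidation were higher in EIC-injected kidneys. PPAR-alpha, encoded by Ppara, is the receptor that drives this program in fasting, and carnitine carries long-chain fatty acids into mitochondria. Of 25 genes of the list tested, 7 were higher and 0 lower (median LFC 0.35), against 2.43% and 2.57% of all genes. Without Control 653, 7 were higher, against 1.37% of all genes. Acaa1b, a peroxisomal thiolase, was at 296, 408 and 560 CPM in EIC-injected and at 251, 223, 185, 244 and 240 CPM in Control (LFC 0.86, SE 0.11, adjusted p = 7.5e-05). Slc25a20, which exchanges acylcarnitine for carnitine at the inner mitochondrial membrane, was at 66.7, 91.7 and 125 CPM in EIC-injected and at 57.7, 52.9, 56.7, 45.2 and 55.6 CPM in Control (LFC 0.80, SE 0.10). Both genes were higher in every injected mouse, as was the carnitine palmitoyltransferase Cpt2 (LFC 0.44, SE 0.08).

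Further members rose with overlap. Cpt1a, the outer membrane partner of Cpt2, had an LFC of 0.40 (SE 0.08), and Creb3l3, which turns on fasting genes as a transcription factor, had 2.36 (SE 0.34), from a low level of 0.248, 1.16 and 2.32 CPM in EIC-injected and 0.216, 0.151, 0.249, 0.204 and 0.464 CPM in Control. Ppara itself had an LFC of 0.60, with an adjusted p of 0.037, and of 0.12 without Control 653. Picked out after their values were seen, the carnitine importer Slc22a5 rose by 0.48 (SE 0.09) and Pck1, the enzyme that commits oxaloacetate to glucose, by 0.76 (SE 0.15). Pck1 was at 5350, 6400 and 9967 CPM in EIC-injected and at 4725, 3767, 3156, 4053 and 5092 CPM in Control, with no overlap. G6pc, which releases free glucose, had an LFC of 1.06 (adjusted p = 0.021, and 0.068 without Control 653). In the Ces1 family of carboxylesterases, 3 of 5 genes tested were higher, against 2.43% of all genes. Among them was Ces1d, at 503, 754 and 1270 CPM in EIC-injected and at 480, 414, 347, 372 and 439 CPM in Control (LFC 1.04, SE 0.16).

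Lipid synthesis was lower by the count with all libraries, but only in part without Control 653. Of 24 genes of cholesterol and lipid synthesis tested, 5 were lower and 0 higher (median LFC −0.22), against 2.57% and 2.43% of all genes. Without Control 653, 1 was lower (median −0.17), against 1.65% of all genes. The gene that stayed was Srebf1, the transcription factor that turns on lipogenic enzymes, at 35.6, 45.8 and 74.5 CPM in EIC-injected and at 67.6, 82.6, 86.0, 101 and 51.8 CPM in Control (LFC −0.71, SE 0.15, and −0.67 with adjusted p = 0.022 without Control 653). Fasn, the fatty acid synthase, was at 52.5, 73.2 and 80.1 CPM in EIC-injected and at 83.1, 70.0, 633, 91.2 and 68.4 CPM in Control, and its LFC was −1.41 with and −0.15 without Control 653 (adjusted p = 0.029 and 0.49). Acaca, the acetyl-CoA carboxylase, had an LFC of −0.93 with and −0.22 without that library, and the desaturase Scd2 had −0.82 with and −0.49 without (adjusted p = 0.066).

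Col4a3 and Col4a4 were lower in EIC-injected kidneys. Of 13 podocyte markers tested, 5 had a positive and 8 a negative LFC (median −0.11). As DE genes, 0 were higher and 3 were lower, against 2.43% and 2.57% of all genes. Without Control 653 these numbers were the same, against 1.37% and 1.65% of all genes. Col4a3 and Col4a4, which are among the 3 that were lower, encode chains of the collagen IV network made by podocytes, and they lie head to head on chromosome 1. Col4a3 was at 97.0, 130 and 153 CPM in EIC-injected and at 185, 169, 182, 191 and 205 CPM in Control (LFC −0.56, SE 0.08, adjusted p = 0.00018). Col4a4 was at 97.7, 119 and 149 CPM in EIC-injected and at 182, 152, 187, 168 and 155 CPM in Control (LFC −0.51, SE 0.08). Both were lower in every injected mouse than in any Control mouse. Cd2ap, an adaptor of the slit diaphragm, had an LFC of −0.25 (SE 0.06), and the summed level of all 13 markers was 986 to 1299 CPM in EIC-injected and 1167 to 1520 CPM in Control, which overlap.

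Other genes of matrix and adhesion moved singly. Grem1, which binds and blocks BMP ligands outside the cell, was at 0.368, 0.884 and 1.80 CPM in EIC-injected and at 4.48, 5.40, 2.12, 4.28 and 2.24 CPM in Control (LFC −2.05, SE 0.31, and −2.20 without Control 653). Mmp15, a membrane-bound metalloproteinase, was at 1.63, 2.46 and 3.54 CPM in EIC-injected and at 5.80, 4.54, 6.97, 4.69 and 5.34 CPM in Control (LFC −1.13, SE 0.14). All injected mice were below all Control mice for both. Itgb6, an integrin chain that activates latent TGF-beta, fell by 0.92 (SE 0.12), to 28.7, 37.1 and 48.8 CPM in EIC-injected, against 81.0, 74.3, 58.4, 68.4 and 75.4 CPM in Control. Thbs4, a matricellular thrombospondin, was at 2.31, 4.71 and 7.25 CPM in EIC-injected and at 0.917, 1.36, 0.871, 2.24 and 0.309 CPM in Control (LFC 2.03, SE 0.30). It was the only DE gene of 21 collagen and matrix genes tested, where 1 was higher and 0 were lower, and 1 of 17 metalloproteinase genes and 2 of 23 BMP and TGF-beta genes were lower, against 2.57% of all genes.

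The synthesis of dopamine was represented by Ddc, which was lower. Ddc, the decarboxylase that makes dopamine from filtered L-DOPA in the proximal tubule, was at 60.69, 80.8 and 104 CPM in EIC-injected and at 212, 151, 119, 143 and 179 CPM in Control (LFC −0.98, SE 0.11, adjusted p = 5.6e-06). All injected mice lay below all Control mice, and of 6 genes of the dopamine list tested, 2 were lower, against 2.57% of all genes. The LFC of Ddc was −1.04 in EIC, −0.88 in EIC + S60 and −1.02 in EIC + S120. Among tubular markers, the proximal tubule list had 3 of 25 genes higher (median LFC 0.11), and 1 without Control 653, against 2.43% and 1.37% of all genes. Slc16a9, a carnitine and creatine carrier, was among the 3, with an LFC of 0.55 (SE 0.09). The 17 genes of the thick ascending limb and distal tubule and the 15 of the collecting duct held 0 DE genes by edgeR, with 3 and 2 at an unadjusted p under 0.05 and 0 and 1 DE genes by DESeq2. The summed level of the collecting duct genes was 1283 to 2448 CPM in Control, and 1283 to 1653 CPM without Control 653.

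Single genes of cell growth, iron and amino acid metabolism did not overlap or nearly so. Ccnd1, the cyclin of entry into the cell cycle, was at 132, 189 and 275 CPM in EIC-injected and at 523, 435, 263, 350 and 303 CPM in Control (LFC −0.92, SE 0.16), with overlap only at Control 653. Ccne1, the cyclin of the step into S phase, was at 0.417, 0.778 and 1.64 CPM in EIC-injected and at 0.378, 0.376, 0.373, 0.204 and 0.309 CPM in Control (LFC 1.30, SE 0.25). Ccnd1 and Ccne1 were the 2 DE genes among 17 cell cycle genes tested, 1 lower and 1 higher, against 2.57% and 2.43% of all genes. Tfrc, the transferrin receptor, which was picked out after its values were seen, fell by 0.76 (SE 0.12), to 25.8, 40.1 and 47.5 CPM in EIC-injected, against 57.5, 73.4, 60.66, 68.7 and 61.0 CPM in Control. Amt and Gldc, subunits of the mitochondrial glycine cleavage system, moved in opposite directions, with LFCs of −0.49 (SE 0.07) for Amt and 0.83 (SE 0.18) for Gldc. Sesn2, a stress-induced regulator of amino acid sensing, rose by 0.63 (SE 0.09) without overlap. It was the only DE gene of 16 in its list of ATF4 targets, against 2.43% of all genes higher. Aqp8, a water and ammonia channel, fell by 1.14 (SE 0.26) from a low level, without overlap.

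Immune genes mostly had positive LFCs, but few were DE when the injected groups were pooled. Of 20 macrophage and monocyte markers tested, 20 had a positive LFC (median 0.67). Of these, 2 were DE genes and 1 was without Control 653, against 2.43% and 1.37% of all genes higher. An unadjusted p under 0.05 was found for 13, and 5 were DE by DESeq2. Adgre1, the F4/80 antigen of tissue macrophages, was at 1.64, 4.09 and 11.8 CPM in EIC-injected and at 1.89, 2.11, 1.49, 2.31 and 1.62 CPM in Control (LFC 1.35, SE 0.28, adjusted p = 0.013, and 0.049 without Control 653). The highest value was that of EIC 67, and 14 of 15 injected mice lay above all Control mice, the exception being EIC + S120 80 at 1.64 CPM. The median LFC of the list was 1.06 in EIC, 0.62 in EIC + S60 and 0.37 in EIC + S120, and 9, 0 and 0 of its genes were DE and higher in these comparisons, which share the Control mice and in which 1.61%, 0.808% and 2.89% of all genes were higher. The summed level of the markers was 133 to 322 CPM in EIC-injected and 120 to 147 CPM in Control.

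For the lists of myeloid lectins and of complement genes, the calls with all libraries were lost without Control 653. Calls of both lists were also lost without other single Control libraries. Of 10 myeloid lectins and Siglecs tested, 3 were higher with all libraries (against 2.43% of all genes), and each of the 3 lost its call without Control 653. Clec4a1, an inhibitory lectin, had an LFC of 1.87 (SE 0.37, with adjusted p = 0.027, and 0.076 without Control 653), and Siglece, a sialic acid receptor, had 1.15 (SE 0.27, adjusted p = 0.045, and 0.068 without Control 653). Clec4a1 lost its call without Control 651, 652 or 655 as well. Siglece lost its call without any 1 of the 5 Control libraries, and its LFC was 1.24 without Control 653. The LFC of Clec4a1 was 2.41 in EIC, 1.88 in EIC + S60 and 0.92 in EIC + S120. Of 17 complement genes, C2 and C1qa were higher, against 2.43% of all genes. C1qa, a chain of C1q that tissue macrophages make, was at 8.26, 12.9 and 34.9 CPM in EIC-injected and at 5.85, 7.68, 6.10, 9.93 and 7.20 CPM in Control (LFC 1.00, SE 0.24, adjusted p = 0.044, and 0.12 without Control 653). Its call was lost without any 1 of the 5 Control libraries, and its LFC was 0.94 without Control 653. C1qb and C1qc had pooled LFCs of 0.94 and 0.97 with adjusted p-values of 0.084 and 0.066. In EIC, EIC + S60 and EIC + S120, the LFCs were 1.46, 0.78 and 0.61 for C1qa, 1.49, 0.58 and 0.53 for C1qb and 1.47, 0.59 and 0.67 for C1qc. Each was DE in EIC only, and the adjusted p between the injected groups was 0.37, 0.22 and 0.33. Itgax, the integrin chain of CD11c, had an LFC of 1.00 (adjusted p = 0.042, and 0.12 without Control 653), and its call was also lost without Control 652, 654 or 655.

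Receptors for IgG that were DE genes in the pooled comparison moved apart. Fcgrt, which encodes the neonatal Fc receptor that recycles IgG and albumin in the proximal tubule and podocytes, was at 236, 321 and 378 CPM in EIC-injected and at 222, 185, 145, 212 and 286 CPM in Control (LFC 0.60, SE 0.11, adjusted p = 0.0025, and 0.0078 without Control 653). Fcgr2b, the inhibitory Fc gamma receptor, was at 15.8, 25.1 and 31.3 CPM in EIC-injected and at 31.8, 36.2, 28.5, 32.8 and 30.0 CPM in Control (LFC −0.39, SE 0.10, adjusted p = 0.019, and 0.02 without Control 653). The call of Fcgr2b was lost without Control 652 (adjusted p = 0.079) or Control 654 (adjusted p = 0.054). Both groups overlapped for each gene. The other 6 of the 8 genes of the list tested did not pass, while 7 of the 8 had an unadjusted p under 0.05. The median LFC of the list was 0.94 in EIC, 0.49 in EIC + S60 and 0.33 in EIC + S120. In these comparisons 4, 0 and 1 of the 8 were DE and higher, against 1.61%, 0.808% and 2.89% of all genes, and 0, 0 and 1 were lower. Syk, a member of the list, had an LFC of −1.24 with and 0.33 without Control 653.

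Interferon-inducible genes held no DE gene in the pooled comparison. Of 19 interferon-gamma-inducible genes tested, 0 were DE by edgeR, with 8 at an unadjusted p under 0.05, 1 DE gene by DESeq2 and 0 by limma-voom, although 19 had a positive LFC (median 0.64). Their median LFC was 1.16 in EIC, 0.29 in EIC + S60 and 0.15 in EIC + S120, and 11, 0 and 0 of them were DE and higher, against 1.61%, 0.808% and 2.89% of all genes in the same comparisons. For 28 type I interferon-stimulated genes, 0 were DE by edgeR, with 5 at an unadjusted p under 0.05 and 1 by DESeq2 (median LFC 0.32). In MHC class I loading, B2m and Psme1, a proteasome activator subunit (LFC 0.27), were higher among 12 genes tested, against 2.43% of all genes. Both lost their call without Control 653, and also without Control 651 or 654. The list of genes that the study names, chosen by its authors on the same mice and so no independent evidence, had 3 of 32 higher and 0 lower, against 2.43% and 2.57% of all genes. Without Control 653, 1 was higher, against 1.37% of all genes. Its median LFC was 1.53 in EIC, 0.59 in EIC + S60 and 0.44 in EIC + S120. In these comparisons 18, 1 and 0 of the 32 were DE and higher, against 1.61%, 0.808% and 2.89% of all genes. Those lower were 1, 1 and 0, against 1.37%, 0.479% and 2.67%. Of 12 neutrophil, 10 B and plasma cell and 12 T and NK cell markers, 3, 4 and 3 were listed and passed the filter. Of these, 0 were DE by edgeR or DESeq2, with 0, 1 and 1 at an unadjusted p under 0.05.

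**Figure D5:**
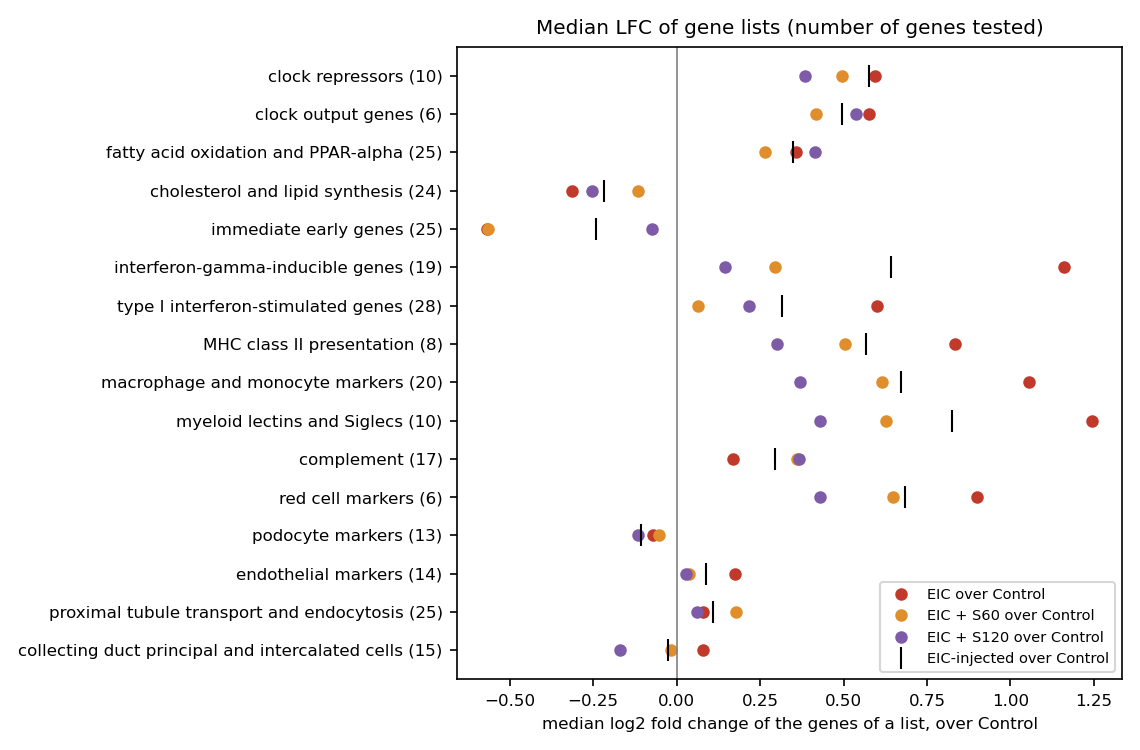
Median LFC over Control of the genes of 16 lists, with the number tested, as coloured points for EIC, EIC + S60 and EIC + S120 and as a black bar for all EIC-injected mice. For clock repressors and fatty acid oxidation the 3 points lie close together (0.60, 0.49 and 0.38 for clock repressors, in the order of the legend), while for interferon-gamma-inducible genes they lie at 1.16, 0.29 and 0.15.

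Red cell transcripts were measured beside the immune genes. The 6 red cell markers tested had a median LFC of 0.68, with 0 DE genes by edgeR, 5 at an unadjusted p under 0.05 and 2 by DESeq2, and their summed level was 383 to 1311 CPM in EIC-injected and 438 to 658 CPM in Control. Their part in the immune values was not tested. Of 14 endothelial markers, 0 were DE by edgeR, with 2 at an unadjusted p under 0.05 and 1 by DESeq2. Among genes of heat shock and chaperones, 3 of 21 were higher, and 1 was without Control 653, against 2.43% and 1.37% of all genes. Hspa8, the constitutive HSC70, had an LFC of 0.52 (SE 0.11).

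Immediate early and glucocorticoid-induced genes varied between mice. Of 25 immediate early genes tested, Fosb and Btg2 were lower (median LFC −0.24), and 1 was without Control 653, against 2.57% and 1.65% of all genes. In EIC, EIC + S60 and EIC + S120 over the shared Control mice, 6, 4 and 0 of them were DE and lower. The shares of all genes lower were 1.37%, 0.479% and 2.67%. Fosb, an AP-1 subunit, was at 0.0547, 0.248 and 0.585 CPM in EIC-injected and at 0.593, 1.08, 0.498, 1.02 and 0.928 CPM in Control (LFC −1.71, SE 0.37, adjusted p = 0.011, and 0.054 without Control 652). Fos was at 0.512, 3.20 and 22.2 CPM in EIC-injected and at 18.2, 15.2, 10.1, 11.4 and 27.2 CPM in Control (LFC −1.74, SE 0.68, adjusted p = 0.098). Its LFC was −3.10 in EIC, −2.95 in EIC + S60 and −0.59 in EIC + S120, and that of Egr1 was −3.12, −2.31 and −0.12 in the same order, but the test among the injected groups gave adjusted p-values of 0.080 and 0.053. Of 11 glucocorticoid-induced genes, Mt1 and Mt2 were the 2 DE genes, against 2.43% of all genes higher. The median LFC of this list was 0.79 in EIC, 0.21 in EIC + S60 and 1.37 in EIC + S120. In these comparisons 2, 2 and 6 of the 11 were DE and higher, against 1.61%, 0.808% and 2.89% of all genes. Tsc22d3 and Fkbp5, which encode GILZ and a co-chaperone of the glucocorticoid receptor, had LFCs of 1.19 (adjusted p = 0.066) and 1.00 (adjusted p = 0.12). The LFC of Fkbp5 was 0.83 in EIC, 0.17 in EIC + S60 and 1.62 in EIC + S120, with an adjusted p of 0.080 between the injected groups.

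Differences between the injected groups were rare by the test with 2 degrees of freedom over the 3 groups. It gave 9 genes, 0.0643% of those tested, and 5 of them were among the 699 DE genes of the pooled comparison. Of the 699, 122 had an unadjusted p under 0.05 in this test (17.5%), against 8.37% of all genes tested. A p that misses the threshold does not show that the groups were alike, and DESeq2 gave 144 genes. Over the same 5 Control mice, edgeR gave 225 genes higher (1.61%) and 191 lower (1.37%) in EIC, 113 higher (0.808%) and 67 lower (0.479%) in EIC + S60, and 404 higher (2.89%) and 373 lower (2.67%) in EIC + S120.

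Ren1, which encodes renin, the enzyme at the head of the angiotensin cascade, had the widest range of group LFCs among these 9 genes. It was at 136, 169, 204, 231 and 214 CPM in EIC, at 805, 514, 837, 440 and 756 CPM in EIC + S60, at 592, 862, 756, 464 and 818 CPM in EIC + S120 and at 230, 139, 55.6, 163 and 97.3 CPM in Control. All mice with sparsentan lay above all mice without it, and EIC overlapped with Control. Its LFC over Control was 0.48 in EIC, 2.29 in EIC + S60 and 2.35 in EIC + S120 (adjusted p = 0.036 between the injected groups). The pooled LFC of 1.92 (SE 0.47, adjusted p = 0.029, and 0.084 without Control 653) averages over groups that differed. The pooled call of Ren1 was also lost without Control 652, 654 or 655. Akr1b7, an aldo-keto reductase found in renin-producing cells of mouse kidney, had an LFC of 0.41 in EIC, 1.52 in EIC + S60 and 1.13 in EIC + S120, with an adjusted p of 0.17 between the groups.

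Other genes set EIC + S120 apart. Cry1 had an LFC of 2.12 in EIC, 1.80 in EIC + S60 and 2.93 in EIC + S120 (adjusted p = 0.018), and Gldc had 0.56, 0.53 and 1.27 in the same order (adjusted p = 0.022). Dbp, a D-box activator, had 0.68, 0.71 and −0.01 (adjusted p = 0.014). Dbp was at 133 to 194 CPM in EIC + S120, 232 to 299 CPM in the other injected mice and 132 to 186 CPM in Control, so that EIC + S120 alone overlapped with Control. Cited2, a transcriptional cofactor, had LFCs of −0.19, −0.16 and −0.47 (adjusted p = 0.049). The genes Map3k5, a stress kinase, Gjb2, a connexin, and Ypel2 differed between the injected groups but were not DE in the pooled comparison, and their LFCs in EIC + S120 were 0.56, −0.71 and 0.80. Tmem252 and Pllp, the myelin protein plasmolipin, had pooled LFCs of 1.27 and −0.68 and an adjusted p of 0.17 and 0.12 between the groups.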

How the data were processed

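Kidney RNA of 20 mice was sequenced, 1 library per mouse. Per the submitters' processing notes, the tools of the authors were Trimmomatic 0.36 (trimming), STAR 2.5.2b (alignment, GRCm38) and featureCounts from Subread 1.5.2. What they deposited are unscaled counts for each gene. No strand setting is given in the sources, so overlapping genes are uncertain. Every listed gene has a count in EIC 65. A marker that was not tested was either not listed or did not pass the filter.

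Groups came from the labels. Genes needed 10 or more counts in 5 or more of 20 libraries and were scaled by TMM, and tested two-sided with edgeR 4.0.16 (robust quasi-likelihood, R 4.3.3) and Benjamini-Hochberg adjustment. The pooled test set 15 libraries against 5. A 4-group fit gave the group LFCs and the test among injected groups. SEs came from limma 3.58.1 (limma-trend, prior count 2). Steps were tested on simulated data.

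The text names the 12 largest positive and 12 most negative LFCs, the 10 smallest p-values, the 10 most uniform genes, the 8 that differed most between injected groups, and up to 5 genes of each list (all of a list of 12 or fewer). Outside that rule, chosen after their values were seen, are Ces1d, Ppara, Pck1, G6pc, Slc22a5, Itgb6, Egr1, C1qb, Amt, Map3k5, Gjb2, Ypel2, Tfrc, Aqp8 and the Nat8 and Ces1 families. Some genes under the rule are not reported here. Members and lists were chosen with earlier results of these data known. Coordinates came from GENCODE vM21 (GRCm38), which 15387 symbols matched. Alternatives were RLE scaling, DESeq2 1.42.0, limma-voom, other filters, thinning, equal weights for the 3 groups, and leaving out libraries or groups.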

Additional observations from a re-analysis of the deposited data

Results flagged for a closer look

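Within each group of 5 mice, a value was noted when its gap to the nearest other mouse took an unusually large part of the group's range (Dixon's test, 95% level), which chance does in about 1 of 20 groups. In Control, mouse 653 was such a value for Ucp1 (93.1 CPM), Plin1 (28.7 CPM), Cidec (17.3 CPM), Thrsp (113 CPM), Pnpla3 (24.4 CPM), Fasn (633 CPM), Acaca (117 CPM), Ptges (66.6 CPM) and, on the low side, Ces1g (0.498 CPM). The other Control values were Per2 in Control 655 (11.2 CPM) and C1qb in Control 654 (7.69 CPM).

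In EIC, mouse 67 was highest for Adgre1 (11.8 CPM), Siglece (4.04 CPM) and Itgax (3.41 CPM) and stood apart for Fkbp5 (58.8 CPM). EIC 65 stood apart for Npas2 (0.724 CPM) and Plin1 (1.40 CPM), EIC 66 for C2 (70.3 CPM) and Sesn2 (110 CPM), and EIC 68 for Col4a4 (100 CPM) and Tfrc (25.8 CPM). In EIC + S60, mouse 72 stood apart for Ucp1 (0.404 CPM) and Plin1 (1.62 CPM), mouse 75 for Srebf1 (74.5 CPM), Slc25a20 (66.7 CPM) and Egr1 (28.2 CPM), and mouse 73 for Gabra4 (1.80 CPM).

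In EIC + S120, mouse 78 stood apart for Arntl (5.78 CPM) and Gabra4 (2.20 CPM), and mouse 77 for Scd2 (79.8 CPM), Pck1 (5621 CPM) and Ccne1 (1.07 CPM). Mouse 79 stood apart for Slc39a10 (26.5 CPM) and Ucp1 (0.917 CPM), and mouse 81 for Mthfd1l (5.24 CPM).

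Further genes are noted because the injected groups differed from each other by edgeR's quasi-likelihood test over the 3 groups. The adjusted p-values were 0.00282 for Map3k5, 0.0141 for Dbp, 0.0181 for Cry1, 0.0224 for Gldc, 0.0224 for Gjb2, 0.0359 for Ren1, 0.0493 for Cited2 and 0.0493 for Ypel2.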

How the results depend on the processing

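With 5 Control libraries, the counts of DE genes varied with the libraries used, and thinning all libraries to the smallest gave 590 DE genes against 699. Leaving out 1 library at a time gave 423 to 809 DE genes for EIC-injected over Control, with 192 to 391 higher and 211 to 418 lower. It gave 233 to 465 in EIC, 103 to 225 in EIC + S60 and 489 to 1167 in EIC + S120 over Control. Genes without overlap then numbered 148 to 235, and genes that differed between the injected groups numbered 2 to 19, with 19 when EIC + S120 77 was left out. Without both deepest Control libraries there were 404 DE genes (210 higher, 194 lower) and 332 genes without overlap. Without the group EIC + S120 there were 396 DE genes, 167 of them lower, and without the group EIC or EIC + S60 there were 251 genes without overlap in either case. DESeq2 gave 531 genes higher, 704 DE genes in EIC, 359 in EIC + S60 and 144 that differed between the injected groups. Fits that leave libraries out have fewer samples by construction, and the cause of the other changes was not tested. Other scalings, filters and fits kept each count within 1.5 times.

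Among 84 DE genes given with values, 46 were DE under each of the 32 alternatives and 38 lost their call under at least 1. Direction turned in Cidec (LFC −3.33 to 0.12 with 1 library left out at a time, and 0.060 by limma-voom) and Pnpla3 (LFC −2.77 to 0.10 with 1 library left out at a time), where both highest values are those without Control 653, and the cause by limma-voom was not tested. No paired analysis was possible because the groups share no mouse numbers.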
